A study of Mus musculus with 6 samples.

Results

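The 10 probe sets described here measure 8 chemokine genes, Ccl3, Ccl4, Cxcl2, Cxcl1, Ccl6, Ccl9, Ccl2 and Ccl5, out of 45101 probe sets on the array. Ccl6 and Ccl9 have 2 probe sets each. They were chosen by gene, as chemokines that neutrophils and other leukocytes make, after earlier results of these arrays had shown the Ccl3 probe set as the one with the largest rise in cells without miR-223. The difference between null and wild-type cells is therefore given for these probe sets as a description, without p-values, and counts of those past a threshold stand only beside the share over all probe sets. Expression arrays had been run on RNA of bone marrow neutrophils from mice, 3 arrays for miR-223 null neutrophils and 3 for wild-type neutrophils. All cells were taken directly from the animals by magnetic sorting with a Gr-1 antibody, which binds Ly6G on neutrophils and also Ly6C on monocytes, and no group was treated. Not given in the sources used here are the strain, age and sex of the mice, the design of the null allele, and whether each array stands for a separate animal. The table names no genes except in the identifiers of the array's controls, and the pairing of these 10 probe sets with genes came with their choice and was not checked, so markers of neutrophils and of other cells, and the loss of miR-223 itself, were not analysed here, and which cells of the sorted samples made these chemokines was not tested.

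Chemokines are small secreted proteins that direct the movement of leukocytes through receptors on the cell surface. Ccl3 and Ccl4 (the macrophage inflammatory proteins 1α and 1β) attract monocytes and other leukocytes. Cxcl1 and Cxcl2 act on Cxcr2 and draw further neutrophils to a site of inflammation. Ccl6 and Ccl9 are CC chemokines of rodents that myeloid cells make without stimulation. Ccl2 attracts monocytes through Ccr2, and Ccl5 is best known as a product of T and NK cells. In neutrophils, transcription of Ccl3, Ccl4, Cxcl1 and Cxcl2 is known to be induced by inflammatory signals through NF-κB.

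The null cells are labelled as lacking a microRNA, miR-223, whose main mature strand is shown because the labels set the groups apart by it. The capitals mark the seed, bases 2 to 8, with which a microRNA finds its targets. RefSeq places it at chrX:96242884-96242905 on the plus strand of GRCm38.p6, the build of all the RefSeq sequences given here.
mmu-miR-223-3p: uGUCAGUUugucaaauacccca

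RefSeq start-site windows, from 250 bases before to 50 bases after the start of the gene, were at hand for 5 of the 8 genes. Those of 3 genes are shown, that of Ccl3 because its probe set differed most and those of Cxcl1 and Cxcl2 because they share a motif and lie side by side in the genome. The Ccl3 window is chr11:83649329-83649628 (minus strand), that of Cxcl2 chr5:90903649-90903948 (plus strand) and that of Cxcl1 chr5:90890995-90891294 (plus strand). Capitals mark the NF-κB motif searched for, GGGA and TTTCC with any 1 base between them, on either strand.
Ccl3: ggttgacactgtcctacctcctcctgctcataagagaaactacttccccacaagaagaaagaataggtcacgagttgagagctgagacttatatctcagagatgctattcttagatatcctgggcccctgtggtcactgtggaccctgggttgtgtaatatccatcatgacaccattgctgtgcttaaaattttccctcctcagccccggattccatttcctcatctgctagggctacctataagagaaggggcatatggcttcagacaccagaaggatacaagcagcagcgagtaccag
Cxcl2: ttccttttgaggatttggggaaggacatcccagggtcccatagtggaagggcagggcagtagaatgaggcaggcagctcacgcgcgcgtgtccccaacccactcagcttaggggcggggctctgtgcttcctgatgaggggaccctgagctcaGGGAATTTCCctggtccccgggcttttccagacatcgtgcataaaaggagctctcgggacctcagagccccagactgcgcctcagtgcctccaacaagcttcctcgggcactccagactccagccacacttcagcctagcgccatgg
Cxcl1: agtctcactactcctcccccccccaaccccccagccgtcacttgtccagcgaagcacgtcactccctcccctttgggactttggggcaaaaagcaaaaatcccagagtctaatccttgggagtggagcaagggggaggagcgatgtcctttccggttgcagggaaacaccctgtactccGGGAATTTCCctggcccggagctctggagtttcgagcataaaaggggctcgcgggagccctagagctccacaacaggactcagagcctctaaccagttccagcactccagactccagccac
The motif occurred 97 to 88 bases before the start of Cxcl2 and 71 to 62 bases before that of Cxcl1, both times as GGGAATTTCC, and in none of the windows of Ccl3, Ccl6 and Ccl9. Among all 32851 windows 135 (0.411%) held it. The AP-1 motif TGANTCA was found in 1 of the 5 windows, that of Ccl9, 53 to 47 bases before the start, and in 7.81% of all windows. The C/EBP motif TTGCNNAA, on both strands, was in 0 of the 5 and in 10.8% of all windows. The TATA box TATAAA, on the coding strand, was in 1 of the 5, again Ccl9, 92 to 87 bases before the start, and in 8.32% of all windows. A match describes these letters and is not evidence of binding. A missing match does not show that a site is absent, since only these patterns and windows were searched. In the order of protein-coding genes in RefSeq, Ccl5, Ccl9, Ccl6, Ccl3 and Ccl4 follow one another on chromosome 11 with 0 others between them, 30 others separate Ccl2 from Ccl5, and Cxcl1 and Cxcl2 are neighbours on chromosome 5.

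The sorted columns of deposited values differed by at most 0.0890, so the arrays shared nearly the same distribution before any step here. The medians of the 6 arrays accordingly lay between 4.81 and 4.84 on the deposited log2 scale. Their 18 hybridization control probe sets, bacterial and phage sequences added to every sample, divided them into a brighter set (null replicates 1 and 2 and wild-type replicate 1, control means 10.94 to 10.98) and a dimmer set (null replicate 3 and wild-type replicates 2 and 3, 10.72 to 10.81), and each set held both groups. Differences within the sets are given below. A test of the set itself covered only the 8 chemokine probe sets that passed the filter on the mean. Over the 22519 probe sets with a mean of at least 4.83 over the 6 arrays, limma with Benjamini-Hochberg adjustment at 0.05 called 864 (3.84%), of which 625 were higher (2.78%) and 239 lower (1.06%) in the null arrays. A fit blocked on the technical set called 1255 higher (5.57%) and 1211 lower. Without null replicate 1, 2 or 3 the 864 became 85, 147 and 337, and without wild-type replicate 2 or 3 they became 503 and 410. Of the 10 chemokine probe sets 8 passed this filter on the mean. Cxcl1 and Ccl2 did not.

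Of the 8 chemokine probe sets that passed, all had a higher mean in null cells, and in 5 all null values lay above all wild-type values. The other 2, Cxcl1 and Ccl2, overlapped between the groups and had a lower mean in null cells. Among all 22519 probe sets, 12.8% were separated upward and 11.8% downward. The median difference of the 8, null minus wild type, was 0.66 on the log2 scale, against −0.01 over all tested probe sets. In the limma fit 3 of the 8 lay past the threshold, all upward (3.84% of all tested probe sets did so in either direction and 2.78% upward), namely Ccl3, Ccl4 and the Ccl6 probe set 1420249_S_AT. Because the probe sets were chosen with this contrast known, nothing is read from these counts. The percentages that follow are the share of all tested probe sets past the threshold, in either direction, in the same fit. The count was 4 with the set as a block (11.0%), where the second Ccl6 probe set, 1417266_AT, also passed. Without null replicate 1 it was 0 (0.377%). It was 1, Ccl3 alone, without null replicate 2 (0.653%), wild-type replicate 1 (2.63%) or wild-type replicate 2 (2.23%). Without null replicate 3 it was 2, Ccl3 and Cxcl2 (1.5%). Without wild-type replicate 3 it was 3, Ccl3 and both Ccl6 probe sets (1.82%). It was 0 with null replicates 1 and 2 averaged as 1 sample (0.528%).

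**Figure D1:**
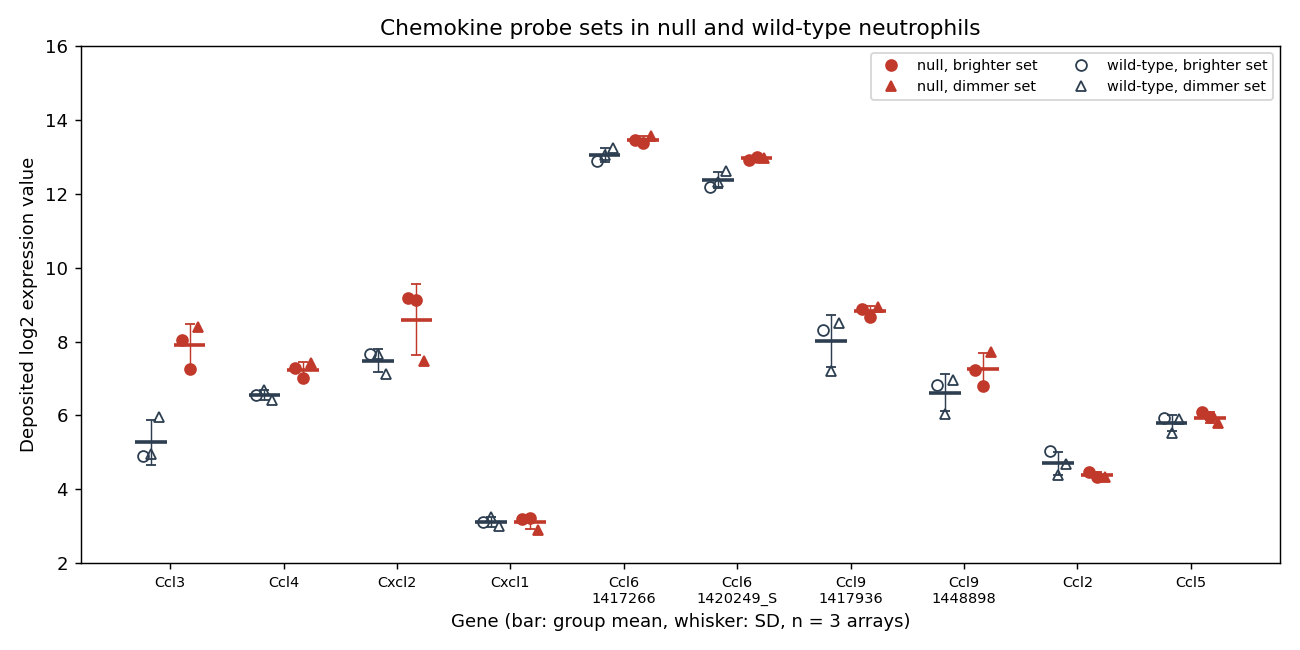
Deposited log2 expression value (vertical axis) of each chemokine probe set (horizontal axis) in every array. Open dark symbols are wild-type and filled red symbols null arrays, circles the brighter and triangles the dimmer technical set, and bars with whiskers the group mean and SD (n = 3). The 3 null values of Ccl3 sit between 7.25 and 8.39, above the wild-type values of 4.90 to 5.96, while the groups of Cxcl1 overlap.

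Ccl3 (probe set 1419561_AT) had the widest separation of the 10. Its log2 values were 8.04, 7.25 and 8.39 in null replicates 1 to 3 and 4.90, 4.94 and 5.96 in wild-type replicates 1 to 3. The lowest null value exceeded the highest wild-type value by 1.29 log2 units, and wild-type replicate 3 stood above the other wild-type arrays. The mean difference was 2.63 (standard error 0.364), or 6.18-fold. Wild-type replicates 1 and 2 lay just above the filter of 4.83, so the size of this fold rests on low wild-type values. With an offset of 16 on the linear scale the difference was 2.21. Single pairs of a null and a wild-type array differed by 1.29 to 3.49, always upward (9 of 9 pairs). The difference was 2.74 within the brighter set, 2.94 within the dimmer set and 2.84 with the set as a block. It ranged from 2.38 to 2.97 when each array was left out in turn. The arrays of a group also varied. The within-group SD of 0.591 was above that of 98.6% of the tested probe sets, and the median SD of probe sets within 0.5 log2 units of its level was 0.181. Since these are bulk samples, more cells that make a transcript and more of the transcript per cell cannot be told apart, here or for the other chemokines.

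Ccl4 (1421578_AT), the neighbour of Ccl3 in the genome and likewise an attractant of leukocytes, lay higher in null cells by a smaller amount. Null replicates 1 to 3 had log2 values of 7.28, 7.02 and 7.41, and wild-type replicates 1 to 3 had 6.56, 6.69 and 6.43. The groups did not overlap, with 0.332 log2 units between them. The difference was 0.68 (standard error 0.140), or 1.60-fold, with 0.59 within the brighter and 0.85 within the dimmer set. Its within-group SD of 0.168 was close to the median of probe sets at its level, 0.177. The RefSeq gene records of Ccl3 and Ccl4 overlap, and the position of the probes in them was not checked here.

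Cxcl2 (1449984_AT), a ligand of Cxcr2, was high on 2 of the 3 null arrays only. Its log2 values were 9.17, 9.12 and 7.48 in null replicates 1 to 3 and 7.66, 7.66 and 7.13 in wild-type replicates 1 to 3. Null replicate 3 lay inside the wild-type range, so the groups overlapped. The mean difference was 1.11 (standard error 0.430), or 2.15-fold. The pairs of arrays ran from −0.18 to 2.04, and 7 of 9 were upward. The 2 high null arrays are those of the brighter set. There the difference was 1.48, and in the dimmer set it was 0.09. Without null replicate 3 it was 1.66. In the fit with both group and set, the estimate for Cxcl2 was 0.96 for the brighter minus the dimmer set, which did not pass (standard error 0.294, limma adjusted p = 0.124). The gap between 1.48 and 0.09, seen first and then fitted as an interaction term, was 1.40 (standard error 0.317, limma adjusted p = 0.996). In that fit 1 of the 22519 probe sets (0.00444%) passed. Each set holds a group of 1 array, so nothing is read from this term. The within-group SD of Cxcl2, 0.711, was above that of 99.4% of the tested probe sets.

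Cxcl1 (1419209_AT), the other Cxcr2 ligand, lay near the bottom of the scale on every array. The null values were 3.19, 3.24 and 2.90 and the wild-type values 3.11, 3.26 and 3.00 in replicates 1 to 3. The groups overlapped throughout. The difference was −0.01 (standard error 0.115), and its sign turned without null replicate 3 (0.09) or wild-type replicate 2 (0.05) and within the brighter set (0.10). The mean over the 6 arrays, 3.11, was below the filter of 4.83, and detection calls were not used here, so these values do not show whether the transcript was present.

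Ccl6 was bright in both groups, and both of its probe sets lay higher in null cells. For 1417266_AT the null values were 13.45, 13.36 and 13.56 and the wild-type values 12.88, 13.04 and 13.23. For 1420249_S_AT the null values were 12.91, 13.00 and 12.96 and the wild-type values 12.18, 12.31 and 12.62. Neither probe set overlapped between the groups, and wild-type replicate 1 was the lowest array for both. The differences were 0.41 (standard error 0.0970, 1.32-fold) and 0.59 (standard error 0.108, 1.50-fold). Within the brighter set they were 0.53 and 0.77, and within the dimmer set 0.43 and 0.49. The average of the probe sets gave 13.21 ± 0.0469 on the null arrays and 12.71 ± 0.203 on the wild-type arrays (SD, n = 3 per group). The suffix _S marks a probe set that can detect more than a single transcript, so 1420249_S_AT may include signal of a related gene.

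Ccl9 was higher in null cells by a similar amount but with more spread. For 1417936_AT the null values were 8.87, 8.66 and 8.93 and the wild-type values 8.32, 7.21 and 8.50. For 1448898_AT the null values were 7.23, 6.80 and 7.70 and the wild-type values 6.83, 6.04 and 6.97. Wild-type replicate 2 was the lowest array in both probe sets. The groups were separate in 1417936_AT, by 0.162 log2 units, and overlapped in 1448898_AT, where null replicate 2 lay below wild-type replicates 1 and 3. The differences were 0.81 (standard error 0.309, 1.75-fold) and 0.63 (standard error 0.299, 1.55-fold). Without wild-type replicate 2 they were 0.41 and 0.35. Within the brighter set they were 0.45 and 0.19, and within the dimmer set 1.07 and 1.20. The within-group SDs, 0.503 and 0.478, were above those of 97.3% and 96.6% of the tested probe sets.

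Ccl2 (1420380_AT), the monocyte attractant, had a lower mean in null than in wild-type cells. Its null values were 4.48, 4.34 and 4.34 and its wild-type values 5.03, 4.40 and 4.69. The groups overlapped, since null replicate 1 lay above wild-type replicate 2. The difference was −0.32 (standard error 0.162) and −0.16 without wild-type replicate 1, the highest array. It was −0.61 within the brighter and −0.20 within the dimmer set. Its mean of 4.55 was below the filter, so the values say little about the transcript. Ccl5 (1418126_AT), by contrast, passed the filter and had the smallest difference of the 8. Its null values were 6.08, 5.95 and 5.79 and its wild-type values 5.92, 5.53 and 5.90, which overlapped. The difference was 0.16 (standard error 0.149, 1.12-fold), with 0.10 within the brighter and 0.07 within the dimmer set, and 0.03 without wild-type replicate 2, the lowest array.

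**Figure D2:**
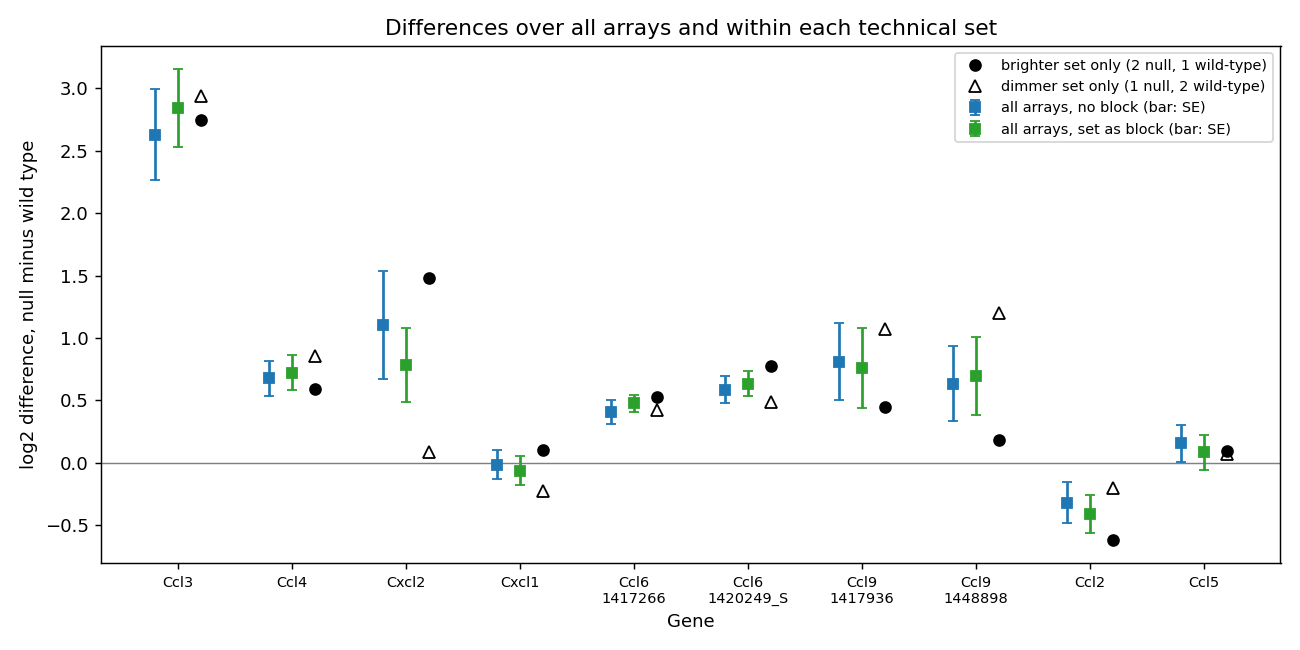
Difference in log2 value, null minus wild type (vertical axis), for each chemokine probe set (horizontal axis). Blue squares are the fit over all arrays and green squares the fit with the technical set as a block, with standard errors, and black circles and open triangles the differences within the brighter and the dimmer set. Ccl3 lies between 2.63 and 2.94 in all 4, whereas Cxcl2 is at 1.48 in the brighter and 0.09 in the dimmer set.

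Among the 22519 tested probe sets ordered by their difference, from the largest rise in null cells downward, Ccl3 stood at place 1, Cxcl2 at place 121, Ccl9 at places 322 (1417936_AT) and 627 (1448898_AT), Ccl4 at place 536, Ccl6 at places 755 (1420249_S_AT) and 1562 (1417266_AT), and Ccl5 at place 4866. Their places were thus spread widely, and the gaps between them were not tested. Ccl5, with the lowest place, borders Ccl9 in the gene order of chromosome 11. Cxcl1 and Cxcl2, neighbours that both hold the NF-κB motif, had differences of −0.01 and 1.11, the former from values below the filter.

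**Figure D3:**
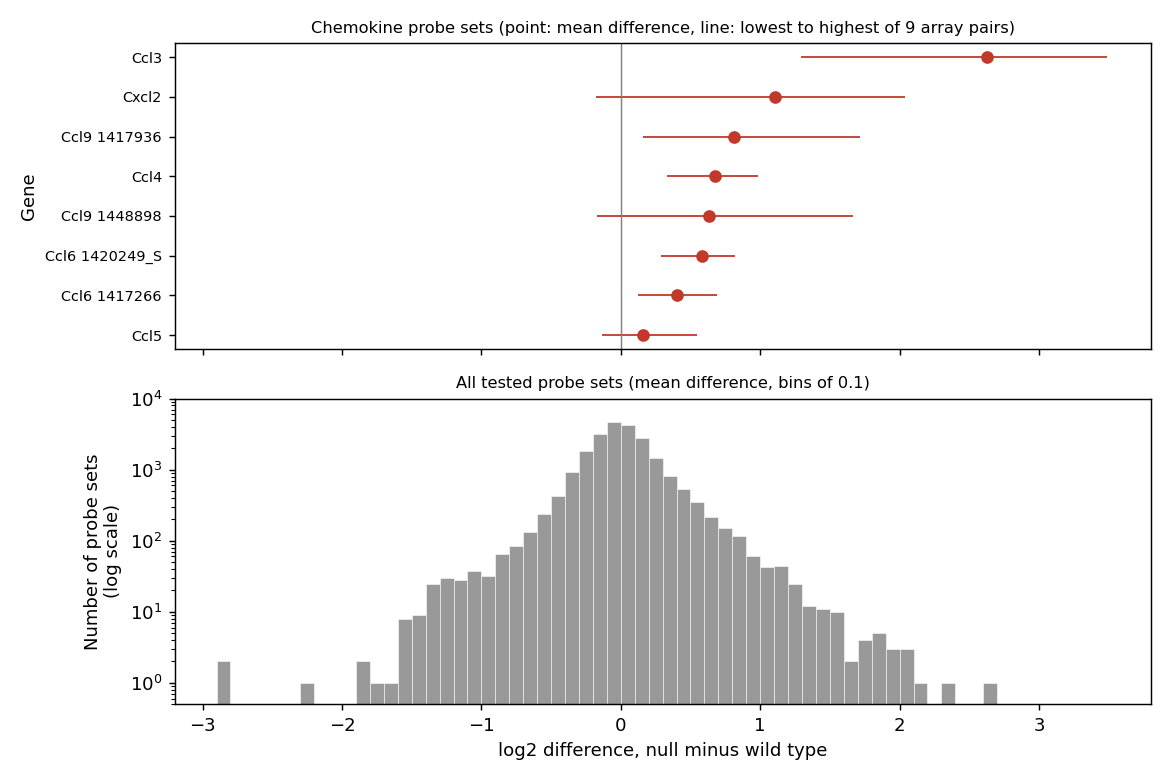
Upper panel, mean difference in log2 value, null minus wild type (horizontal axis), of the 8 chemokine probe sets above the filter (points), with the lowest to highest of their 9 pairs of a null and a wild-type array (lines). Lower panel, number of all 22519 tested probe sets (vertical axis, log scale) by mean difference in bins of 0.1. The lines of Cxcl2, Ccl5 and the Ccl9 probe set 1448898_AT cross 0, and Ccl3 at 2.63 stands at the upper end of the distribution.

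The comparison of the technical sets had no part in the choice of the probe sets, so it was tested. With group and set both in the fit, 436 of the 22519 probe sets (1.94%) differed between the sets, and 0 of the 8 chemokine probe sets did (limma, adjusted p between 0.124 and 0.844). The 436 became 1, 0 and 1 without null replicate 1, 2 or 3, and 1, 1201 and 528 without wild-type replicate 1, 2 or 3. They became 0 in a fit without the group, where 2595 had an unadjusted p under 0.05. At an unadjusted p under 0.05 there were 2 of the 8, Cxcl2 and the Ccl6 probe set 1417266_AT, beside 4698 (20.9%) of all tested probe sets. The estimate for Cxcl2 is given above, and that for this Ccl6 probe set was −0.21 (standard error 0.0654, limma adjusted p = 0.126). The estimate for Ccl3 was −0.65 (standard error 0.309, limma adjusted p = 0.286). Without wild-type replicate 2 the set effect on Cxcl2 passed the threshold, at 1.17 (standard error 0.223, limma adjusted p = 0.0317).

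**Figure D4:**
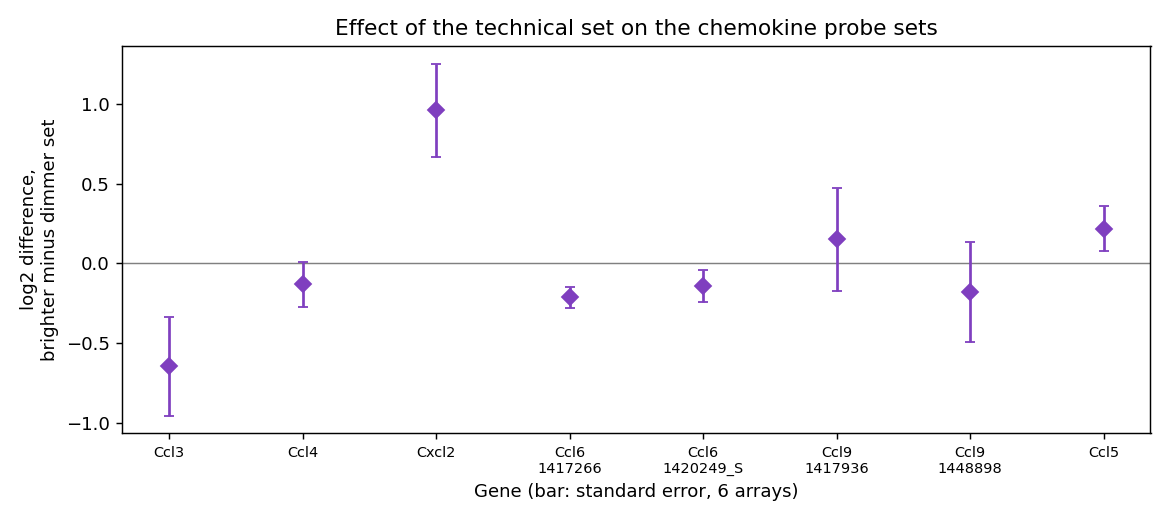
Difference in log2 value between the brighter and the dimmer technical set (vertical axis) for the 8 chemokine probe sets above the filter (horizontal axis), with standard errors, from the fit that also holds the group. Cxcl2 lies at 0.96 and Ccl3 at −0.65, and the other 6 lie between −0.21 and 0.22.

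The profiles most like that of Ccl3 were sought among 2260 other tested probe sets whose values spanned at least 1 log2 unit over the arrays. The closest, 1448208_AT and 1454858_X_AT, had Pearson correlations of 0.989 and 0.987 with Ccl3 over the 6 arrays, which share the contrast of null with wild type and the technical sets. Their differences were 0.81 and 1.42, smaller than the 2.63 of Ccl3. The table does not pair these probe sets with genes.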

How the data were processed

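Expression arrays of 3 miR-223 null and 3 wild-type samples were analysed. The authors deposited log2 values, with 1 value for each probe set on each array. The log2 scale was inferred from the values (2.12 to 14.98). Per the submitters' processing notes the software was GCOS. Its settings were not given in the sources used here. Sorted columns differed by at most 0.0890, so no scaling was added. The table names no genes, so the 10 pairings of probe set and gene came with the choice of the probe sets and were not checked against an array annotation. The planned gene lists and cell type markers were not run. The probe sets, lists and tests were chosen with earlier results of these data known. The named items were all 10 probe sets and, for likeness to Ccl3, 5 probe sets by correlation, of which 2 are printed.

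The 64 controls were left out and the filter was the median of the probe set means. limma 3.58.1 in R 4.3.3 (intensity trend, two-sided, Benjamini-Hochberg over 22519 probe sets, threshold 0.05) was tested on simulated data. These data held independent noise and no technical sets, so that test says nothing about effects that arrays share. The p-values measure only the spread between these samples, which may be technical, and the number of arrays limits the precision. Technical sets were split at the largest gap (0.131) in the hybridization control means. The alternatives were the set or the replicate number as a block, each array left out, quantile normalization, an offset of 16, null replicates 1 and 2 averaged, no filter and no trend. Sequences and gene order came from RefSeq (GRCm38.p6). Figures used matplotlib 3.10.9.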

Additional observations from a re-analysis of the deposited data

How the results depend on the processing

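The 10 differences moved by less than the SD within groups under quantile normalization and the offset of 16. They also did so with null replicates 1 and 2 averaged, with either block and with each array left out. With 3 arrays per group these last settings cannot move a difference by that SD, so nothing is read from this. The sorted columns already differed by at most 0.0890, so quantile normalization could change little, and nothing is read from that setting either. The offset changes bright values little, as for the Ccl6 probe set 1417266_AT (0.406 to 0.405). With arrays left out, the difference of the Ccl9 probe set 1417936_AT ranged from 0.41 to 1.06. Only Cxcl1, at −0.08 to 0.09 with arrays left out, turned in sign. Within the sets 6 moved further: Ccl4 to 0.85, Cxcl2 to 0.0873, Cxcl1 to −0.23 and the Ccl9 probe set 1448898_AT to 1.20 in the dimmer set, and the Ccl6 probe set 1420249_S_AT to 0.77 and Ccl2 to −0.61 in the brighter set. Each such value rests on 3 arrays, and the cause was not tested. The count of 864 probe sets past the threshold became 2466 with the set as a block, 119 with null replicates 1 and 2 averaged, and 85 to 592 with arrays left out, where fewer samples also widen the error. The share of calls that were higher, 72.3%, became 50.9% with the set as a block.

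With no group term, the set effect turned in sign for Ccl3 (0.30), Ccl4 (0.11), Ccl6 1420249_S_AT (0.0680) and Ccl9 1448898_AT (0.0513). With arrays left out it ranged from −0.26 to 0.0024 for Ccl4, from 0.26 to 1.66 for Cxcl2, from −0.17 to 0.46 for Ccl9 1417936_AT and from −0.69 to 0.33 for Ccl9 1448898_AT.

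Deviations of same-numbered arrays correlated at 0.211, −0.124 and 0.371. Arrays with different numbers were not compared, and replicates 1 and 3, unlike 2, share a technical set between the groups. These values therefore do not settle whether the numbers pair samples. The main fit took them as unpaired, since the labels name no pairing. A block on the number lowered the standard error of Ccl3 from 0.364 to 0.187. It did so for the other chemokine probe sets too, except Ccl4 (0.140 to 0.156). With the replicate number as a block 857 probe sets (3.81%) passed, and of the chemokines Ccl3 and both Ccl6 probe sets did, without Ccl4. Without the filter 700 of 45037 probe sets (1.55%) passed, among them Ccl3 and Ccl6 1420249_S_AT, and without the trend 607 of 22519 (2.70%), among them Ccl3 and Ccl4. The alternatives for gene lists were not run.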
